A study of Mus musculus with 8 samples.

Results

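The genes described here are 37 genes of the contractile apparatus and calcium handling of smooth muscle, the tissue that forms the myometrium, the muscular outer wall of the uterus. They were listed by name and role, with no threshold on the values of this comparison but with earlier results of these data known, and each was read from the probe set on the array that carries its symbol alone, or from the brightest such probe set by the mean over all arrays. The array carried 36 of the 37; Itpr1, an inositol trisphosphate receptor, had no probe set with that symbol alone and was not analysed here. A filter on low intensities kept 34 of the 36, among 17494 probe sets kept in all, and left out Casq2 and Oxtr. The values come from whole uteri of young virgin C57BL/6 mice collected at 22 h on day 3 after mating. The mating night was counted as day 0. Of the 8 samples, 4 were pregnant uteri, after mating with stud males, in which blue dye marked no attachment site and whose horns yielded healthy-looking blastocysts. The other 4 were pseudopregnant, after mating with vasectomized males, and such females enter the hormonal state of early pregnancy with no embryo in the uterus. No genotype or drug separated the groups, and the kind of male cannot be told apart from the presence of embryos.

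Smooth muscle contracts when calcium, entering through voltage-gated channels or released from the sarcoplasmic reticulum, binds calmodulin and switches on myosin light chain kinase. The phosphorylated myosin then pulls on actin filaments that are anchored at dense bodies and at the membrane, and myosin phosphatase ends the contraction. Many of the genes are switched on by serum response factor with its coactivator myocardin, and in early pregnancy progesterone is known to keep the myometrium quiet until labour.

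The labels call each sample a biological replicate but do not say whether a sample was 1 animal, so the p-values measure the spread between these samples. Array medians of the linear intensity were 55.2 to 56.3, and the small number of arrays limits the precision of every value. Pregnant replicate 2 and pseudopregnant replicate 1 stood apart from their groups on the first axis of variation (-26.7 and 20.3, against -6.63 to -4.90 and 6.76 to 9.32 for the other pregnant and the other pseudopregnant arrays), so the counts are given without them as well. The samples are labelled uterus, and smooth muscle genes of the list were bright. Acta2, Actg2, Cnn1, Tagln, Des and Myh11 lay between 9.86 and 11.9 on the log2 scale on all arrays, where the 40th percentile of an array was 5.23 to 5.32. Of 14 markers of skeletal and cardiac muscle, 6 did not pass the filter, namely Myh1, Myh2, Myh4, Myh6, Myh7 and Myod1. The other 8 passed, among them Acta1 (7.33 to 7.91 over the arrays) and Tnnt2 (7.32 to 7.86), so the filter does not tell whether striated muscle was present.

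In pregnant uterus before attachment, 2 of the 34 measured genes fell and 0 rose. Pln, the inhibitor of the calcium pump of the sarcoplasmic reticulum, was 1.36-fold lower, and Myocd, the coactivator that drives smooth muscle genes, was 1.21-fold lower. Myl9, Myh11 and Mylk, on the myosin side, were lower by 0.22 to 0.38 on the log2 scale without passing the test. For Mylk the groups overlapped at 1 pregnant array. Myl6, also on that side, differed by -0.05, and the thin filament gene Lmod1 by -0.21 with no overlap. The groups overlapped for Actg2, Cnn1 and Tagln, whose differences were 0.09 to 0.15. Without pregnant replicate 2 and pseudopregnant replicate 1 these became -0.11, -0.02 and -0.04. The groups also overlapped for Acta2, where 1 pseudopregnant array reached the pregnant range, and for Des, where 1 pregnant array lay within the pseudopregnant range. Rises and falls are named only at a limma p under 0.05 after Benjamini-Hochberg adjustment across the 17494 kept probe sets. By that rule 0.412% of all kept probe sets fell and 1.41% rose (72 and 247 probe sets, 1.82% in either direction), against 5.88% and 0 of the measured genes. The split of all probe sets was 95 and 193 with each array centred on its median, 123 and 251 with a repeated quantile normalization and 123 and 255 with cyclic loess. At an unadjusted limma p under 0.05, 9 of the 34 were lower and 0 higher, 26.5% against 9.43% of all kept probe sets lower and 14.3% higher. The groups did not overlap, with every pregnant array lower, for 7 of the 34 (20.6%, against 5.38% of all kept probe sets), and for 0 with every pregnant array higher (9.23% of all). The median log2 difference of the 34 was -0.06, against 0.0019 over all kept probe sets, and 21 of the 34 (61.8%) lay below 0, against 49.4% of all. Of the epithelial and endothelial markers read below, 78.6% and 100% lay below 0, so this lean was not particular to the contractile genes. Without pregnant replicate 2 and pseudopregnant replicate 1, a setting added after seeing the data, 1 gene (Pln) was called lower, 0 were called higher, 27 of the 34 lay below 0 and the median was -0.08. The number called lower was 1 without pregnant replicate 4 (Myl9) or pseudopregnant replicate 1 (Pln), and 0 without any other single array, without the intensity filter, or with replicate number as a block. Because these are whole uteri, fewer smooth muscle cells and less RNA per cell cannot be told apart.

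**Figure D1:**
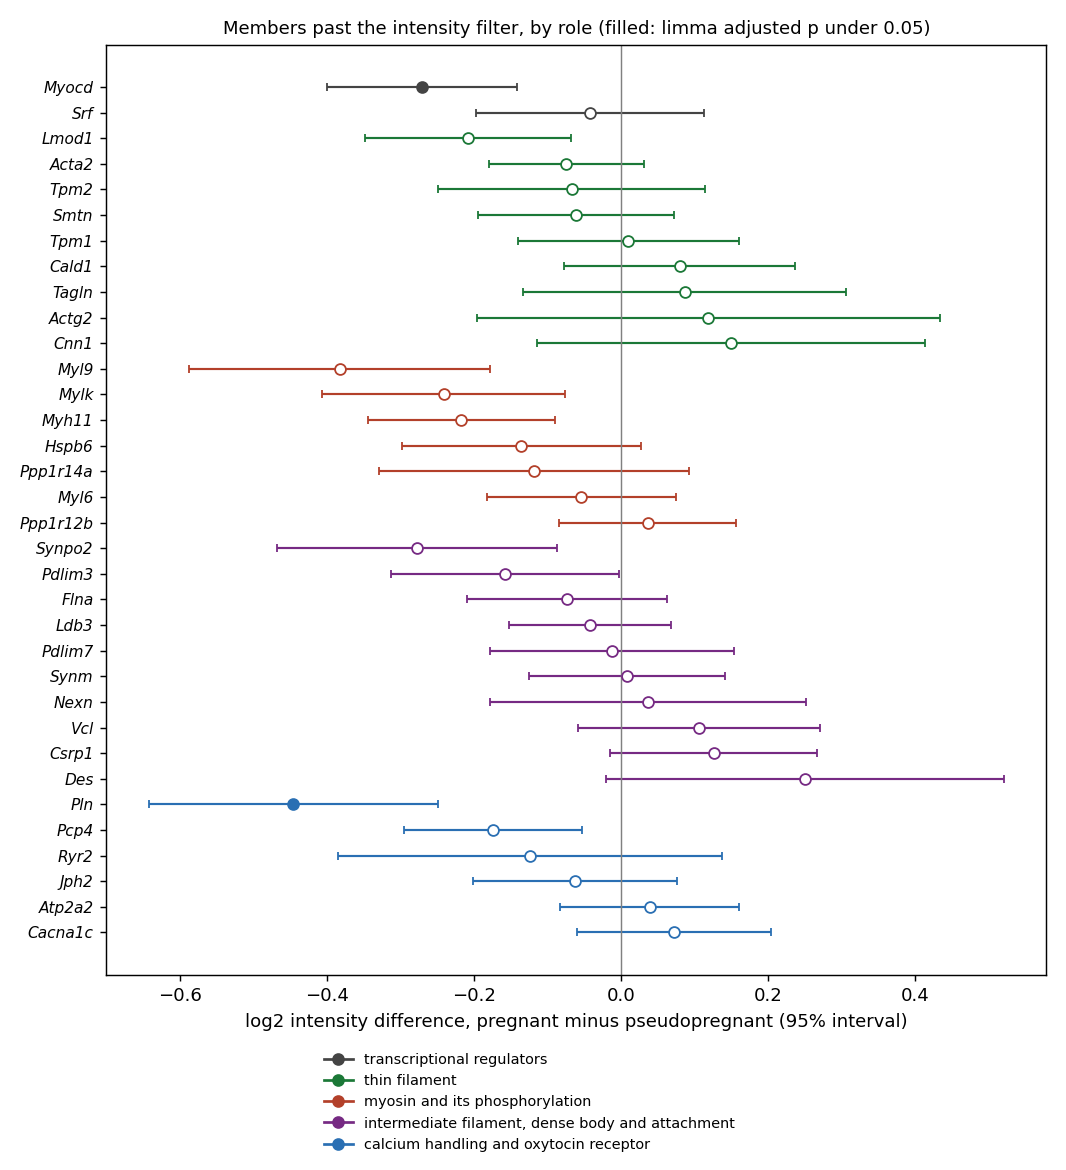
Log2 intensity difference of each of the 34 measured genes, pregnant minus pseudopregnant, with its 95% interval from limma (n = 4 arrays in each group), coloured by role and ordered by size within a role. The filled points are Myocd at -0.27 and Pln at -0.45; the other 32 points are open, and the thin filament genes lie on both sides of 0.

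Serum response factor binds a short element called the CArG box, which reads CC, then 6 bases that are each A or T, then GG, and is its own reverse complement in form. RefSeq promoters on GRCm38.p6, each running from 250 bases before a gene's start to 50 after it, were at hand for 30 of the 37 genes. A CArG box was found in those of 5 genes, Srf, Myl9, Vcl, Myl6 and Ldb3, that is 16.7% of 30, against 1.81% of the 27025 genes in the promoter table. With 1 G or C allowed among the 6 middle bases, a setting chosen after the exact matches were counted, the numbers were 12 genes (40%) against 11.3%. A match describes the letters of the window only, and no match, as for Pln and Des, says nothing about binding elsewhere. The 7 genes with no entry, which were not searched, include Myocd, Myh11, Actg2, Tagln, Atp2a2 and Nexn. Windows around the boxes are shown for the 5 genes with an exact match and for Acta2 and Pcp4 as examples of the 7 genes with only the looser form (the others are Jph2, Cacna1c, Hspb6, Synm and Pdlim3), because they let the values below be read beside the element that these genes share. They lie at chr17:46556190-46556269 (minus strand), chr2:156775278-156775399 (plus), chr14:20929148-20929205 (plus), chr10:128493025-128493084 (minus), chr14:34588682-34588741 (minus), chr19:34255374-34255482 (minus) and chr16:96467474-96467533 (plus). Each is written 5′ to 3′ on the gene's strand, ends before the start, and has the boxes, exact or looser, in capitals.
Srf: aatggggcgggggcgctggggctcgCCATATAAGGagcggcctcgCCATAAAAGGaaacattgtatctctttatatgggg
Myl9: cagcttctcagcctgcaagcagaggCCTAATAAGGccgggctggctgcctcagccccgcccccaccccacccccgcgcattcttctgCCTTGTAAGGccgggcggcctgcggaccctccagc
Vcl: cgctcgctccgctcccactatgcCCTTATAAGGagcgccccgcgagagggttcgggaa
Myl6: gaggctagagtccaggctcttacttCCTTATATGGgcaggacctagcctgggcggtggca
Ldb3: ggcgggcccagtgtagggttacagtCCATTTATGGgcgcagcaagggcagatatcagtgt
Acta2: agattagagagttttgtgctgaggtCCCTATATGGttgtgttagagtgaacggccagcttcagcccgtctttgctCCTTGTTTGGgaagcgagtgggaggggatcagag
Pcp4: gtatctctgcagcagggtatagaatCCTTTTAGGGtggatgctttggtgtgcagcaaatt
Counting the base just before the start as -1, the boxes begin at -82 and -62 in Srf, at -161 (exact) and -99 (looser) in Myl9, and at -84 and -34 (both looser) in Acta2. Of the 12 genes with either form, 2 (Myl9 and Pcp4) had all pregnant arrays below all pseudopregnant arrays, and for the other 10 the groups overlapped. The share with no overlap on that side was 20.6% of the 34 measured genes and 5.38% of all kept probe sets.

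Of the regulators, Myocd fell and its partner Srf did not pass. The log2 intensities of Myocd were 6.97, 7.02, 6.97 and 7.12 on pregnant arrays 1 to 4 and 7.37, 7.26, 7.31 and 7.20 on pseudopregnant arrays 1 to 4. All pregnant values lay below all pseudopregnant values, and pregnant replicate 4 and pseudopregnant replicate 4 came closest to each other. The log2 difference of Myocd was -0.27 ± 0.058 (SE), from means of 7.02 ± 0.070 and 7.29 ± 0.072 (SD, n = 4 each), and its limma adjusted p was 0.0498, just under the threshold. Leaving out any 1 of the 8 arrays ended that call (adjusted p 0.0569 to 0.116), while the difference stayed between -0.30 and -0.24. Srf, the DNA-binding partner of myocardin, had 7.783, 7.893, 7.968 and 7.890 on pregnant and 7.882, 8.040, 8.001 and 7.779 on pseudopregnant arrays, so the groups overlapped. Its difference was -0.04 (95% interval -0.20 to 0.11, adjusted p = 0.74). The other coactivators of serum response factor in the array's table, Mrtfa and Mrtfb, differed by 0.09 (adjusted p = 0.41) and -0.07 (0.62), both with limma.

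Of the 7 genes of myosin, its phosphorylation and relaxation, 0 passed the test; 6 had differences below 0, and the median was -0.14. Myl9, the regulatory light chain that the kinase phosphorylates, had 10.1, 10.2, 10.1 and 10.5 on pregnant arrays 1 to 4 and 10.6, 10.8, 10.5 and 10.6 on pseudopregnant arrays 1 to 4. The groups did not overlap, with pregnant replicate 4 (10.495) just under pseudopregnant replicate 3 (10.507). The difference was -0.38 ± 0.092 (SE), a 1.30-fold lower level in the pregnant group, with a limma adjusted p of 0.060; without pregnant replicate 4 it was -0.46 and passed (0.0497), and without any other single array it did not (adjusted p 0.0872 to 0.131). Myh11, the smooth muscle myosin heavy chain, had 10.09, 10.04, 10.09 and 10.15 against 10.20, 10.40, 10.35 and 10.30, again with no overlap. Its difference was -0.22 ± 0.057 (SE, limma adjusted p = 0.070), and every pregnant array lay below the lowest pseudopregnant array, replicate 1. Mylk, the light chain kinase itself, had 8.186, 8.079, 8.209 and 8.335 against 8.304, 8.496, 8.568 and 8.405. Here 1 pregnant array, replicate 4, lay above pseudopregnant replicate 1, and the difference was -0.24 ± 0.074 (SE, limma adjusted p = 0.099). Myl9 and Myh11 passed in this comparison under cyclic loess between the arrays (0.0495 and 0.0499) and with an intensity trend and robust variances in limma (0.044 for each), and Mylk did not pass under any alternative run.

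The other genes of this group showed smaller differences. Ppp1r14a, an inhibitor of myosin phosphatase, differed by -0.12 (95% interval -0.33 to 0.09), Hspb6, a small heat shock protein tied to relaxation, by -0.14 (-0.30 to 0.03), and Myl6, the essential light chain, by -0.05 (-0.18 to 0.07). Myl6 had 6 probe sets with differences between -0.10 and -0.05 and nearly the same values on every array; whether they read Myl6 or near-identical copies of it cannot be separated in the deposited values. Ppp1r12b, a targeting subunit of the phosphatase, had 7 probe sets that disagreed. The brightest, which stands for the gene, differed by 0.04 (adjusted p = 0.71), the next by -0.28 (adjusted p = 0.077). The latter had 7.36, 7.16, 7.36 and 7.22 on pregnant and 7.43, 7.66, 7.67 and 7.45 on pseudopregnant arrays, with no overlap. The remaining 5 differed by -0.06 to 0.21, none of them past the threshold, so no direction is given for Ppp1r12b.

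The thin filament genes showed no common direction: of 9, 0 passed the test, 4 had differences below 0 and 5 above, with a median of 0.01. Lmod1, which nucleates actin filaments in smooth muscle, stood apart from the others. It had 6.70, 6.56, 6.63 and 6.76 on pregnant arrays and 6.92, 6.81, 6.95 and 6.79 on pseudopregnant arrays, with no overlap, and differed by -0.21 ± 0.063 (SE, limma adjusted p = 0.096). Acta2, smooth muscle alpha actin and the brightest of these probe sets, had 11.82, 11.81, 11.78 and 11.81 against 11.82, 11.92, 11.92 and 11.87. Pseudopregnant replicate 1 lay among the pregnant arrays, and the difference was -0.07 (95% interval -0.18 to 0.03, adjusted p = 0.36). Smtn, an actin-binding protein of contractile smooth muscle, and the tropomyosins Tpm1 and Tpm2 differed by -0.06, 0.01 and -0.07, each with limma adjusted p above 0.56. The sign for Tpm1 turned with each array centred on its median (-0.01), with a repeated quantile normalization (-0.02) and with cyclic loess (-0.03). Actin genes have very similar coding sequences, as do tropomyosins, and the deposited values cannot separate probes shared between relatives.

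Cnn1 (calponin), Actg2 (gamma smooth muscle actin) and Tagln (transgelin), with desmin, the intermediate filament of muscle, varied widely within groups. Actg2 had 10.2, 10.9, 10.3 and 10.4 on pregnant arrays 1 to 4 and 10.1, 10.4, 10.5 and 10.4 on pseudopregnant arrays 1 to 4. The highest value was that of pregnant replicate 2 and the lowest that of pseudopregnant replicate 1, and the remaining 6 arrays overlapped. Cnn1 had 10.5, 10.9, 10.5 and 10.8 against 10.2, 10.5, 10.7 and 10.6, and Tagln 10.3, 10.5, 10.3 and 10.4 against 10.1, 10.2, 10.5 and 10.4, with the same arrays at both ends. Des had 10.1, 10.7, 10.2 and 10.3 against 9.86, 10.1, 10.1 and 10.2. The differences were 0.12 for Actg2, 0.15 for Cnn1, 0.09 for Tagln and 0.25 for Des, with limma adjusted p of 0.63, 0.47, 0.62 and 0.24. Without pregnant replicate 2 and pseudopregnant replicate 1 they were -0.11, -0.02, -0.04 and 0.06, so the signs of the first 3 rest on those arrays. The SD of Actg2 in the pregnant group was 0.29, against 0.017 for Acta2 on the same arrays.

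**Figure D2:**
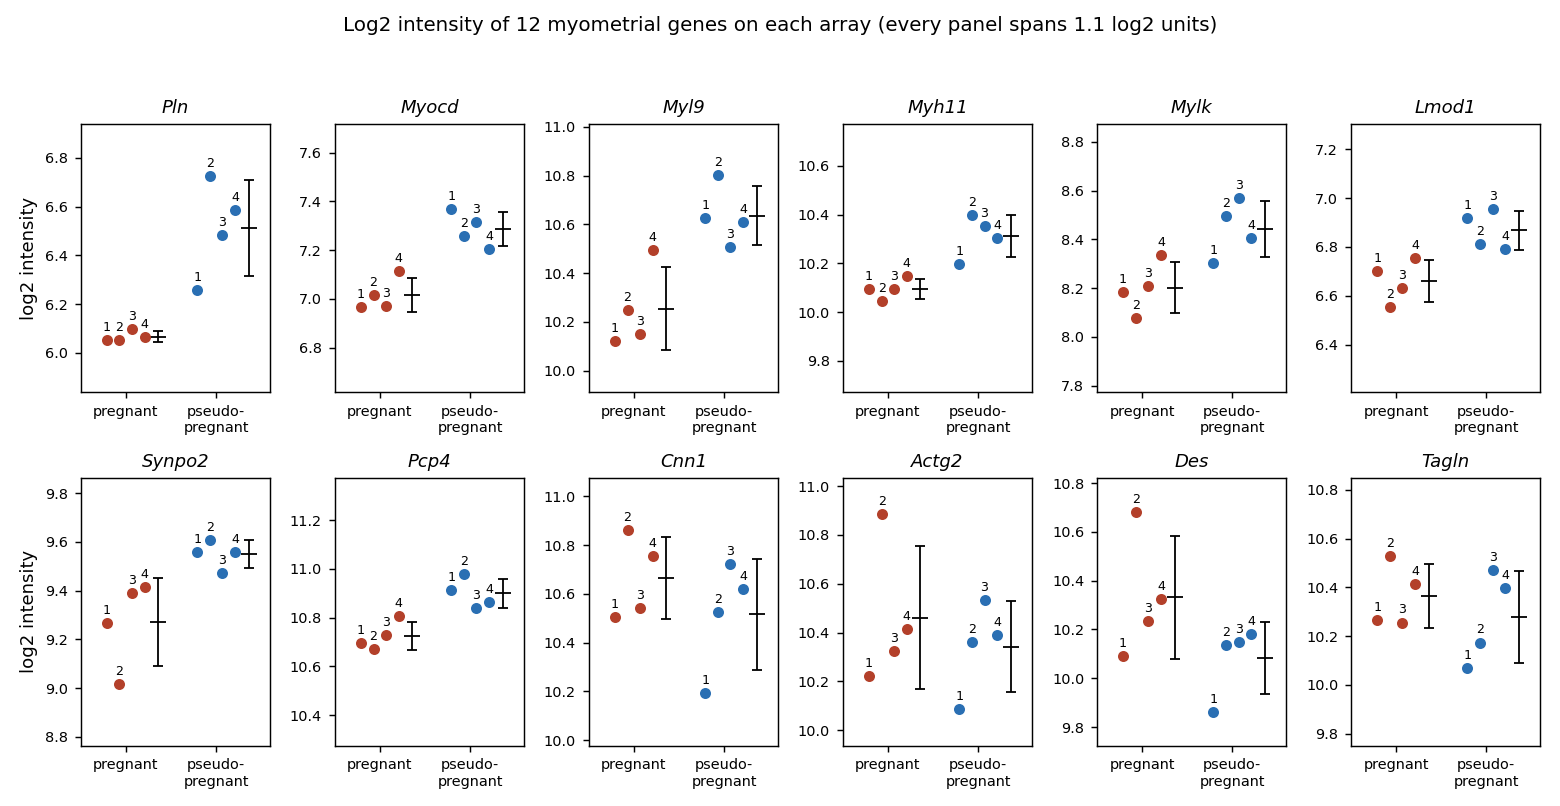
Log2 intensity on each array (numbers are replicates) for 12 of the genes, with the mean and SD of each group beside the points; every panel spans the same number of log2 units. Pln, Myocd, Myl9, Myh11, Lmod1, Synpo2 and Pcp4 show pregnant arrays below all pseudopregnant arrays, whereas Cnn1, Actg2, Des and Tagln overlap, with pregnant replicate 2 highest and pseudopregnant replicate 1 lowest.

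Among the 10 genes of intermediate filaments, dense bodies and attachment, 0 passed the test, with 5 differences on each side of 0. Synpo2, which binds actin and filamin at dense bodies, had 9.26, 9.02, 9.39 and 9.41 on pregnant and 9.56, 9.61, 9.47 and 9.56 on pseudopregnant arrays. The groups did not overlap, and the difference was -0.28 ± 0.085 (SE, limma adjusted p = 0.099). Pdlim3, a PDZ and LIM domain protein of the muscle cytoskeleton, had 9.74, 9.64, 9.61 and 9.75 against 9.74, 10.02, 9.85 and 9.77 and differed by -0.16 (adjusted p = 0.21). Its relatives Pdlim7 (-0.01) and Ldb3 (-0.04) differed less. The actin crosslinker Flna (-0.07, 95% interval -0.21 to 0.06), the membrane anchor Vcl (0.11, -0.06 to 0.27), the LIM protein Csrp1 (0.13, -0.01 to 0.27), the filament protein Synm (0.01, -0.12 to 0.14) and the actin-binding Nexn (0.04, -0.18 to 0.25) had intervals that hold 0. Vcl was higher in pregnant replicate 3 (8.96) than on the other pregnant arrays (8.71 to 8.75).

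The calcium handling genes held the largest fall. Pln, phospholamban, slows the sarcoplasmic reticulum calcium pump until it is phosphorylated; its log2 intensities were 6.05, 6.05, 6.10 and 6.06 on pregnant arrays 1 to 4 and 6.26, 6.73, 6.48 and 6.58 on pseudopregnant arrays 1 to 4. The pregnant arrays lay close together and below all pseudopregnant arrays, among which replicate 1 was lowest. The difference was -0.45 ± 0.088 (SE, limma adjusted p = 0.039), with 6.07 ± 0.022 against 6.51 ± 0.20 (SD, n = 4 each). The call held without pseudopregnant replicate 1 (-0.53, adjusted p = 0.0396) and ended without any 1 of the other 7 arrays (0.0657 to 0.0821), with differences of -0.46 to -0.38. Pcp4, a small protein that changes how calmodulin binds calcium, had 10.70, 10.67, 10.73 and 10.81 against 10.91, 10.98, 10.84 and 10.86. Its groups did not overlap, and it differed by -0.17 ± 0.054 (SE, limma adjusted p = 0.10). The pump that Pln inhibits, Atp2a2, had 10.062, 10.106, 10.088 and 10.194 against 10.058, 10.156, 10.077 and 10.004, and differed by 0.04 (95% interval -0.08 to 0.16, adjusted p = 0.69).

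The channels and junction proteins overlapped between the groups. Cacna1c, the L-type calcium channel through which calcium enters on depolarisation, differed by 0.07 (95% interval -0.06 to 0.20), Jph2, which holds the membrane and the reticulum together, by -0.06 (-0.20 to 0.08), and Ryr2, a calcium release channel of the reticulum, by -0.12 (-0.38 to 0.14). Ryr2 was dim, with pregnant replicate 2 (5.15) below the 40th percentile of its array, so its difference is not exact. Casq2, the calcium store protein of the reticulum, lay below that percentile on all 8 arrays, at 4.48 to 4.85 on pregnant and 4.54 to 4.79 on pseudopregnant arrays. Oxtr, the receptor for oxytocin, the peptide that drives labour, lay below it on 5 of 8 arrays, at 5.08 to 5.31 and 5.12 to 5.42. Without the filter Casq2 differed by -0.05 (limma adjusted p = 0.79) and Oxtr by -0.05 (0.78), and values so near the background carry no size.

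**Figure D3:**
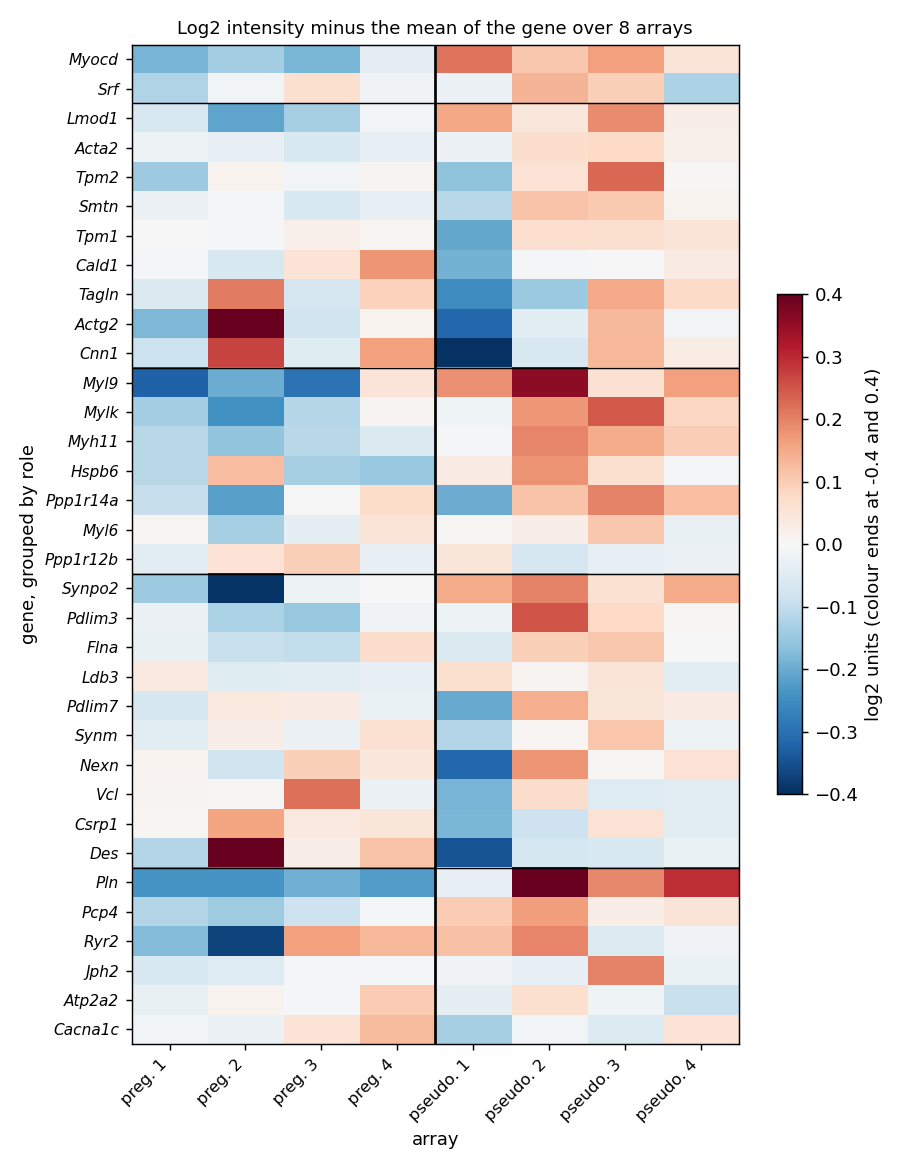
Log2 intensity of the 34 measured genes on each array, minus the gene's mean over the 8 arrays (red above it, blue below), grouped by role with the pregnant arrays left of the vertical line; the colour ends at 0.4 log2 units on either side. Pln, Myocd, Myh11 and Myl9 are bluer on the left, and pseudopregnant replicate 1 is blue for most thin filament and attachment genes.

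The extremes of a group often fell on the same arrays. Pseudopregnant replicate 1 held the lowest value of its group for 21 of the 34 genes (61.8%), against 33.7% of all kept probe sets, and pseudopregnant replicate 2 the highest for 15 (44.1%, against 28.6%). In the pregnant group, replicate 4 was highest for 15 of 34 (44.1%, against 31.2%), and replicates 1 and 2 were lowest for 14 and 13 (41.2% and 38.2%, against 22.9% and 32.8%). The summed linear intensity of the thin filament genes was 10114 to 11461 on pregnant and 9351 to 11340 on pseudopregnant arrays, so the groups overlapped, whereas that of the 7 genes of myosin, its phosphorylation and relaxation was 4885 to 5447 against 5557 to 6082, with no overlap. Sums of wider lists read below separated the other way. That of further contractile, dense body and membrane skeleton genes was 20466 to 20660 on pregnant against 19768 to 20366 on pseudopregnant arrays. That of signals that set contraction was 9176 to 9690 against 8555 to 9144. Such sums are led by the brightest probe sets and describe these arrays only.

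Markers of other cell types were read on the same arrays. Of 10 leukocyte markers, 9 rose, and their summed intensity was 1379 to 1919 on pregnant and 927 to 1129 on pseudopregnant arrays; C1qb, Cd53, Itgam, Adgre1, Ptprc and Gzmb rose by 0.35 (Itgam) to 1.51 (Gzmb). The number of leukocyte markers called was 2 without pseudopregnant replicate 1, 2 or 3, 3 without pregnant replicate 4, 6 without any 1 of the other pregnant arrays, 8 without pseudopregnant replicate 4, 2 without both arrays that stood apart, 2 without the filter and 5 with replicate number as a block. The leukocyte sum was highest in pregnant replicate 2. Of 14 epithelial markers, 0 passed, with a sum of 2108 to 2643 against 2475 to 3323. Their differences lay below 0 for 11 and above 0 for 3, with a median of -0.14. At an unadjusted limma p under 0.05, 4 were lower (28.6%, against 26.5% of the 34 measured genes) and 1 was higher. The epithelial sum was highest on pseudopregnant replicate 1 and lowest on pregnant replicate 2. These arrays had the lowest and the highest Cnn1, Actg2, Tagln and Des, in that order. Of 10 endothelial markers, 0 passed and all 10 differences lay below 0 (sum 3141 to 3554 against 3627 to 3948, no overlap), led by Tie1 (-0.30, limma adjusted p = 0.083) and Erg (-0.23, 0.10). At an unadjusted limma p under 0.05, 4 endothelial markers were lower (40%) and 0 higher. For 4 (40%, against 20.6% of the 34 measured genes) every pregnant array lay below every pseudopregnant array. Of 9 pericyte and vascular smooth muscle markers, cells that also express much of the contractile list, 0 passed and 6 lay below 0 (median difference -0.055). Those with the smallest p, Rgs5 and Pdgfrb, differed by 0.41 (limma adjusted p = 0.080) and 0.25 (0.12). The sum was 1940 to 2206 against 1812 to 2202. Of 12 stromal markers 0 passed (sum 15550 to 16672 against 15015 to 15863; Vcan 0.37, 0.066), of 8 skeletal and cardiac muscle markers 0 passed (727 to 827 against 805 to 883; Tnnt2 -0.32, 0.064), and of 5 markers of mesothelium and fat 0 passed (662 to 727 against 617 to 713). The part of these cells in the values of the contractile genes was not tested.

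**Figure D4:**
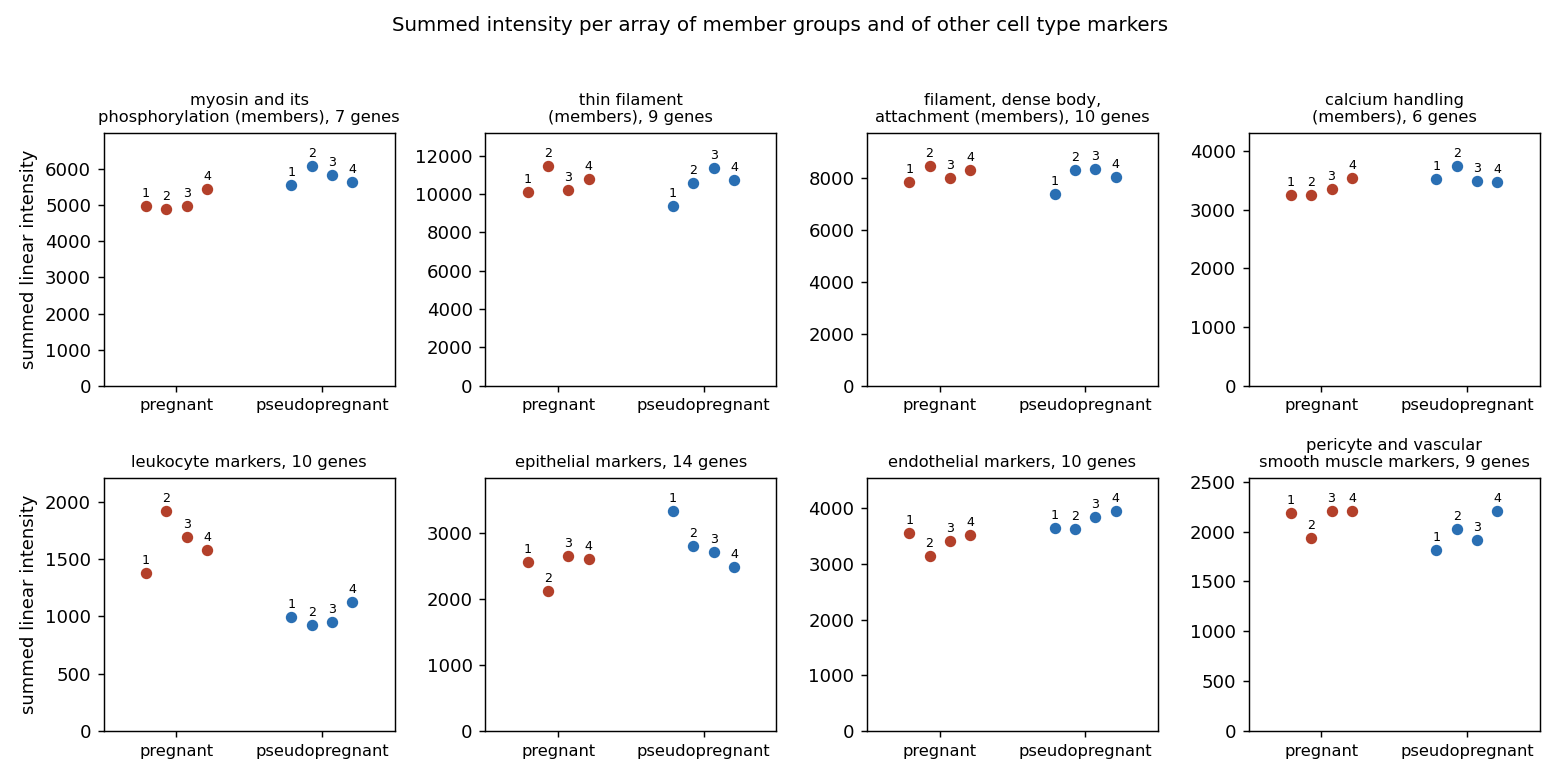
Summed linear intensity on each array (numbers are replicates) of the member groups, top row, and of 4 sets of cell type markers, bottom row; each axis starts at 0. The myosin group is lower on all pregnant arrays (4885 to 5447) than on pseudopregnant arrays (5557 to 6082), the thin filament group overlaps, and the leukocyte markers are higher on all pregnant arrays.

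Genes of the same pathway outside the list gave 0 calls among 79 measured (limma). Of 32 further genes of the contractile apparatus, dense bodies and membrane skeleton, 4 were higher and 3 lower at an unadjusted limma p under 0.05, with a median difference of 0.02. These counts, 12.5% and 9.38% of 32, are near the shares of all kept probe sets (14.3% higher and 9.43% lower). Cav1, which shapes the caveolae of the membrane, had 10.04, 10.08, 10.01 and 10.08 on pregnant and 9.78, 9.88, 9.90 and 9.90 on pseudopregnant arrays and differed by 0.19 (adjusted p = 0.070). Tpm4, a tropomyosin of non-muscle filaments, had 10.402, 10.167, 10.278 and 10.104 against 9.965, 10.002, 10.022 and 9.772 and differed by 0.30 (adjusted p = 0.072). For both, every pregnant array lay above every pseudopregnant array, the opposite side from Myh11 and Myl9. Actb, cytoplasmic beta actin, differed by 0.01 (95% interval -0.10 to 0.11).

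Of 25 further calcium handling genes, 2 were higher and 0 lower at an unadjusted limma p under 0.05 (8% and 0%, both below the shares of all kept probe sets), and the median was -0.0069. The calcium-binding chaperone Calr differed by 0.20 (adjusted p = 0.10) and Stim2, a sensor of calcium in the reticulum, by 0.14 (0.16). Of 22 genes of signals that set contraction, 3 were higher and 2 lower at that p, with a median of -0.0056, and these counts (13.6% and 9.09%) are again near the shares of all kept probe sets. Ptgfr, the receptor for the contractile prostaglandin F, had 6.66, 6.30, 6.21 and 6.65 on pregnant and 6.95, 6.97, 6.81 and 6.83 on pseudopregnant arrays. Its groups did not overlap, and it differed by -0.43 ± 0.11 (SE, limma adjusted p = 0.061). Gja1, the connexin that couples myometrial cells at labour and also joins stromal cells, had 8.81, 9.55, 9.02 and 9.03 against 8.62, 8.62, 8.66 and 8.47, again with no overlap, and differed by 0.51 ± 0.13 (SE, adjusted p = 0.068). Cav1, Tpm4, Ptgfr and a further gene chosen after its values were seen, Actn4 (0.17, adjusted p = 0.075), passed with an intensity trend and robust variances in limma, the setting under which the count over all probe sets went from 319 to 708.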

How the data were processed

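The authors deposited probe set intensities on a linear scale from 8 arrays, made with RMA (background correction, quantile normalization, median-polish summary), per the submitters' processing notes; the sources used here give neither its software nor the annotation build. RMA makes arrays alike and compresses changes near background. Log2 was taken of 28944 probe sets, leaving out 6612 with the lowest identifiers as array controls, an inference from their unbroken numbering. Kept were 17494 probe sets that exceeded the 40th percentile of an array on at least 4 of 8. Groups were compared with limma 3.58.1 (lmFit, eBayes, R 4.3.3), two-sided, with no covariate, adjusted by Benjamini-Hochberg over all kept probe sets. The code was tested on simulated data. Figures used matplotlib 3.10.9 in Python 3.11.15. All 36 genes matched RefSeq by gene number. The text names every member, and of each other list the genes past the threshold (up to 6) or else up to 2 with the smallest p; Mrtfa, Mrtfb, Actb and Actn4 were added. Members and lists were chosen with earlier results of these data known. The labels do not say whether same-numbered samples were handled together. Correlations of their deviations from the group means were 0.24, 0.016, -0.10 and 0.044, with no reference spread, so they do not settle pairing. A run with replicate number as a block is given for that reason.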

Additional observations from a re-analysis of the deposited data

Results flagged for a closer look

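In 7 of 72 groups of 4 values, 1 array lay far from the other 3. The gap was above Dixon's 95% critical value for 4 samples, which chance exceeds in about 1 of 20 independent groups. These groups came from the same 8 arrays, and the share over all kept probe sets was not computed. The count is therefore not read as a trait of these genes. In the pseudopregnant group, replicate 1 was low for Tpm1 (9.97, against 10.23 to 10.24), Cald1 (8.60, against 8.79 to 8.82) and Des (9.86, against 10.14 to 10.18), and replicate 3 was high for Jph2 (6.98, against 6.75 to 6.77). In the pregnant group, replicate 1 was low for Tpm2 (8.78, against 8.91 to 8.94), replicate 2 was high for Hspb6 (8.26, against 7.99 to 8.03) and replicate 3 was high for Vcl (8.96, against 8.71 to 8.75).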

How the results depend on the processing

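Among the 34 measured genes, the count called lower, 2, became 4 with cyclic loess and with an intensity trend and robust variances (each adding Myh11 and Myl9), 1 with the stricter filter (60th percentile, which Pln did not pass; Myocd) or averaged probe sets (Pln), 0 without the filter, and 0 to 1 without single arrays. With replicate number as a replicate block it was 0 (Pln, adjusted p = 0.056; Myocd, 0.089), and the count over all probe sets was 174. The count called higher was 0 under every alternative run, and the median difference stayed between -0.086 and -0.022. The count over the other pathway lists, 0, became 4 with the trend and robust variances. The count over all probe sets, 319, became 54 without the filter, 708 with the trend and robust variances, 40 to 235 without single arrays, and 48 without both arrays that stood apart; in that last setting the members called numbered 1.

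Signs turned only for genes not called. With each array centred on its median, Tpm1 (-0.0080) and Synm (-0.010) turned, likewise with repeated quantile normalization (-0.017 and -0.020), cyclic loess (-0.028 and -0.017) and array weights (-0.017 and -0.023; Actg2 -0.0064). Without both arrays that stood apart, Actg2 (-0.11), Tpm1 (-0.052), Cnn1 (-0.022), Tagln (-0.037), Synm (-0.037) and Nexn (-0.029) turned. Ppp1r12b turned with averaged probe sets (-0.0058) and in 3 of its other probe sets (-0.28, -0.062 and -0.041). Without single arrays the ranges across 0 were -0.022 to 0.20 for Actg2, -0.056 to 0.034 for Tpm1, -0.030 to 0.047 for Synm, -0.082 to 0.034 for Pdlim7 and -0.062 to 0.10 for Nexn. The causes were not tested. Signal over background limits Casq2, Oxtr and Ryr2, and Pln, Ldb3 and Nexn were too dim for the stricter filter.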
